A study of Mus musculus with 8 samples.

Results

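The distal end of mouse chromosome 2 carries a dense cluster of zinc finger genes, most of them known only by provisional symbols, and Gm14435 lies inside it. Members were taken by position and name, as the genes on GRCm38 chromosome 2 with a start between 174.5 and 178.5 Mb and a symbol that begins with Zfp or Gm or ends in Rik. The GENCODE M21 annotation holds 90 such genes, and 46 of them were listed among the 20802 genes of the deposited hippocampal table. The cluster was selected on the Anesthesia against Control difference of Gm14435, so each Anesthesia against Control value of a member is given as a description, without a test. The 4 mice of the Anesthesia group were C57BL/6 males that received ketamine at 35 mg per kg into the peritoneum once a day for 5 days from PND16. The 4 mice of the Control group were C57BL/6 males given saline in the same way according to the protocol, although their sample titles call them untreated. Hippocampal RNA was taken at PND28 by the labels, 1 week after the last injection by the methods. The labels tie each library to 1 numbered sample and do not say whether mice shared a litter or cage.

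KRAB zinc finger proteins bind DNA through an array of C2H2 fingers, and the KRAB domain at their start recruits the corepressor Trim28, which brings the H3K9 methyltransferase Setdb1 and heterochromatin proteins to the bound site. Many members of the family act on retrotransposons, and the genes multiply by tandem duplication, so that neighbours in a cluster can be nearly the same in sequence. Reads from such copies cannot be placed by their sequence alone, and a quantifier divides them among the matching transcripts by likelihood.

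Of the 46 listed members, 37 were annotated as protein coding, 8 as unprocessed pseudogenes and 1 as a processed pseudogene. A KRAB A box was found in the annotated coding sequence of 34 of the 37 coding members, and at least 1 C2H2 finger in 31. Both were found in 30, with up to 25 fingers in Gm14295. Gm14435, Gm14288, Gm14440 and Gm14327 had a KRAB box and 0 fingers in coding sequences of 240, 267, 195 and 195 bases. Zfp831, the proximal member, had 1 finger and no KRAB box, and 2210418O10Rik and Gm14296 had neither in the annotated reading frame. The 44 members not listed were mostly unprocessed pseudogenes, 23 in number, and 9 were coding genes.

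The promoter sequences from RefSeq (GRCm38.p6, from 250 bases before to 50 bases after the start) show how alike the members are. They are printed for Gm4724, whose stretch from -136 to -57 was found without a difference in 19 of the 34 members that have a promoter in that table and in 0 other promoters of 27025, and for Zfp931 at the distal edge. The capitals mark the 3 bases at which Zfp931 differs, and both stretches are on the minus strand, at chr2:175435834-175435913 and chr2:178078494-178078573.
Gm4724: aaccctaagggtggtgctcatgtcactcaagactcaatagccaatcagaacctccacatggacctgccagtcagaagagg
Zfp931: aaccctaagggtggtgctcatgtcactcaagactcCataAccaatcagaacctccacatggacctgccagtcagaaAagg

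Letters were searched on both strands in the 250 bases before the start. The 34 promoters include some members that were not listed, such as Zfp972, and not Gm14435. CCAAT was present in 30 of these 34 promoters (88.2%), and in 34.5% of all 27025 promoters. The GC box letters GGGCGG were in 0 of the 34 and in 32.9% of all promoters, and TATAAA was in 1 of the 34 (2.9%) and in 13% of all. The complete promoters of Gm4724, Gm14308 and Gm2026 were identical over 300 bases, and those of Gm14288 and Gm14440 over 299 aligned bases. A match of letters is a description of the window and not a measured binding site.

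The coding sequences were as close. Gm4724, Gm4631, Gm2026 and Gm14308 shared 1 coding sequence of 1497 bases with 13 fingers, also found in 3 members that were not listed. Zfp965 and Zfp973 had identical coding sequences, as did Gm14391 and Gm6710, Gm2004 and Gm14419, and 2210418O10Rik and Gm14296. Gm14305 differed from Gm4724 at 7 of 1497 bases. A stretch of the finger array, coding bases 899 to 982, is shown for Gm4724 (chr2:175422815-175422898, minus strand), Gm14308 (chr2:176623357-176623440, minus strand) and Gm14305 (chr2:176721215-176721298, plus strand) to show what the reads of these 3 genes could tell apart, with the 2 differing bases in capitals.
Gm4724: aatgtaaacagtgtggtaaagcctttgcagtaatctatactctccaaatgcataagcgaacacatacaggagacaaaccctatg
Gm14308: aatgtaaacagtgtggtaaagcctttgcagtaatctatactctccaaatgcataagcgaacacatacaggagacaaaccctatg
Gm14305: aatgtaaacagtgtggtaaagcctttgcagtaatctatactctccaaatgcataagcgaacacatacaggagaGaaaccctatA

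Gm14435 parted from its closest relatives near the end of its short coding sequence. Its first 191 coding bases were identical to those of Gm14288 and of Gm14440, and the stretch from coding base 151 is printed because it holds the point where Gm14435 leaves the others. Capitals mark bases that differ from Gm14288. The Gm14288 stretch lies at chr2:175791276-175792512 on the minus strand, that of Gm14440 at chr2:175283650-175283694 on the plus strand, and that of Gm14435 at chr2:176432181-176435490 on the plus strand, the first and the third being spliced across an intron.
Gm14288: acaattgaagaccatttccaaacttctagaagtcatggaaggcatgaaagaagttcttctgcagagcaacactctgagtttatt
Gm14440: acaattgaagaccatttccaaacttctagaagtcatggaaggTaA
Gm14435: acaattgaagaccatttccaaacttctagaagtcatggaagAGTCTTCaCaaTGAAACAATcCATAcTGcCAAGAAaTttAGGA

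To set a size on the shared sequence, the distinct words of 31 bases in all transcripts of a gene were looked up in the transcripts of every other gene. The median member had 89.5% of its words in at least 1 other gene, 23 members had over 90% and 6 had all of them. With words of 75 bases the median was 71.7%, and 5 members still had all words elsewhere. Zfp831 shared 0 words and, with a GC content of 51.1% and no KRAB box, is unlike the other coding members although it meets the rule. For Gm14435, 78.3% of the words were in Gm14288, 74.6% in Gm14440, 59.6% in Gm14327, 51.4% in Zfp973 and 50.7% in Zfp968, and 6.43% were in no other gene.

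**Figure D1:**
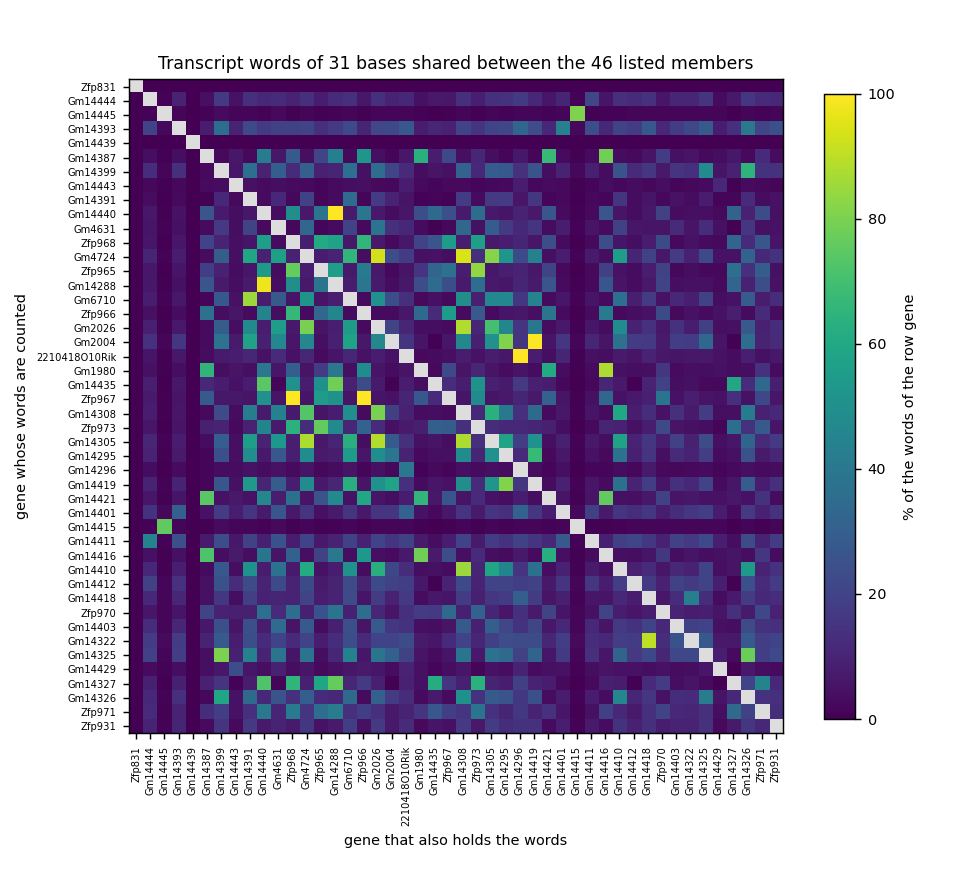
Percent of the 31-base words of each listed member (rows) that also occur in each other listed member (columns), in gene order along chromosome 2. Bright cells off the diagonal are near-copies, such as 100% of the words of Gm14440 in Gm14288 and 94.4% of those of Gm4724 in Gm14308.

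Over the whole table, the limma comparison of the groups gave 0 of 18865 tested genes with an adjusted p under 0.05 (0.0%), 0 with limma voom, and 1513 with an unadjusted p under 0.05 (8.02%, or 3.27% counting lower genes alone). The 8 libraries held an estimated 15400000 to 22200000 reads on listed genes. The 12 choroid plexus markers were uneven between libraries: their summed level ranged from 515 to 57940 normalized counts over the Anesthesia mice and from 669 to 67540 over the Control mice, being high in 1 Anesthesia and 3 Control mice, and Kcne2 was listed at 0 in 1 library. All 12 choroid plexus markers had a fitted difference below 0, with a median of -1.95, and in each of them the groups overlapped. The 8 hippocampal neuron markers were detected in every mouse. Their sums were 22360 to 38870 in Anesthesia mice and 25980 to 32300 in Control mice. Of the markers of other cells, 5 of 5 blood markers had a fitted difference below 0 (median -0.23), 6 of 6 oligodendrocyte markers (median -0.06) and 4 of 6 thalamus markers (median -0.18). Their summed levels overlapped between the groups, with 5066 to 6905 normalized counts in Anesthesia mice and 5337 to 8418 in Control mice for blood, 98860 to 167400 and 87220 to 158700 for oligodendrocytes, and 2391 to 3130 and 2488 to 3033 for thalamus. None was at 0, and their part in the values of the members was not tested. In bulk tissue, fewer cells of a type and less RNA per cell cannot be told apart.

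Levels within the cluster were spread widely. Per kilobase of exon, members ranged from 3.42 normalized counts for the pseudogene Gm1980 to 671 for Gm4631, with a median of 85.1 against 50.4 over all listed genes. The next highest levels per kilobase were 412 for Gm14305, 353 for Gm2026, 331 for Gm14399 and 282 for Gm14325. Gm4631, a gene with 13 fingers, had 2844 ± 119 normalized counts after anesthesia and 3064 ± 134 in the Control group (mean ± SD, n = 4 mice in each group here and below). Gm14435 stood at 66.9 per kilobase, above 55.9% of all listed genes.

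Gm14435, whose difference led to the choice of the cluster, had 76.6, 74.9, 62.2 and 69.1 normalized counts in the 4 Anesthesia mice and 131, 113, 139 and 142 in the 4 Control mice. The groups did not overlap, and every Anesthesia mouse was below the lowest Control mouse. The means were 70.7 ± 6.53 and 131 ± 13.3, and the fitted difference was -0.88 ± 0.13 (SE) on the log2(value + 1) scale. The residual SD of Gm14435 between mice was 0.143 on this scale, 0.602 times the value that the trend over all genes gives at its level. No p is given for it, because this value chose the gene.

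Most other members were also lower in the Anesthesia group, by small amounts. Of the 45 members with a mean of at least 10, the fitted difference was below 0 in 39 and above 0 in 6, that is 86.7% lower, where 50.8% of all tested genes were lower. The pseudogene Gm1980, at a mean of 7.88, was under that filter. The median log2 difference of the 45 members was -0.12, and that of all tested genes was -0.0036. Without Gm14435 the median of the other 44 members was -0.12. In 33 members the difference lay between -0.3 and 0.

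The 4 Anesthesia values all lay below the 4 Control values in 7 tested members (15.6%) and all above them in 0. Over all tested genes, 2.23% did not overlap in the lower direction and 2.81% in the higher direction. Since the contrast led to the choice of the cluster, these shares are printed side by side and not tested. The 7 members were Gm14435, 2210418O10Rik, Gm14295, Gm14412, Zfp966, Gm14326 and Zfp931. They are named for meeting this count, after their values were seen.

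Among these 7, 2210418O10Rik had 753, 819, 787 and 750 normalized counts in the Anesthesia mice and 899, 869, 973 and 889 in the Control mice. Gm14295, the member with 25 fingers, had 534, 554, 570 and 567 against 629, 671, 649 and 605. Between the highest Anesthesia mouse and the lowest Control mouse lay 50 normalized counts in the first gene and 35.8 in the second. Gm14412, with 15 fingers, had 132, 130, 140 and 131 against 180, 152, 171 and 155. Zfp966 had 672, 667, 690 and 664 against 765, 750, 701 and 702, and here the groups were 10.6 normalized counts apart. Gm14326 had 683, 736, 624 and 680 against 745, 753, 780 and 755, and Zfp931 had 397, 430, 398 and 389 against 482, 442, 439 and 482. The fitted log2 differences of these 6 genes lay between -0.30 for Gm14412 and -0.11 for Zfp966.

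**Figure D2:**
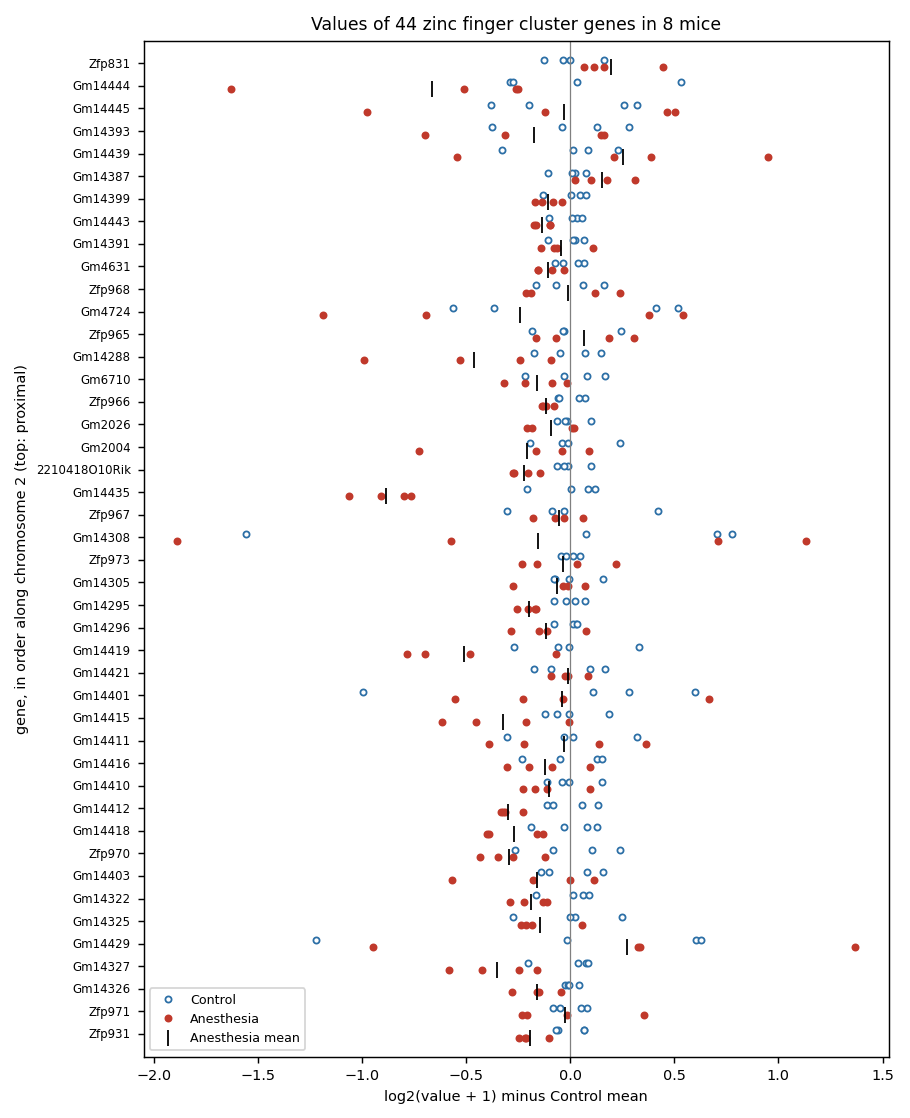
Log2(value + 1) of 44 tested members in each mouse, as the difference from the Control mean of that gene, in gene order; filled points are the 4 Anesthesia mice, open points the 4 Control mice and black bars the Anesthesia mean. Most black bars lie left of 0, and Gm14435 is the gene farthest left, at -0.88; Gm14440, listed at 0 in 5 mice, is not drawn.

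The members with the lowest fitted differences after Gm14435 were Gm14444 and Gm14419. Gm14444, with 10 fingers, had 18.1, 21.9, 21.7 and 7.8 normalized counts in the Anesthesia mice and 21.3, 38.3, 21.5 and 26.8 in the Control mice, a log2 difference of -0.66 ± 0.35 (SE) with overlapping groups, which was -0.34 without Anesthesia mouse 4. Gm14419, with 17 fingers, had 58.3, 54.9, 90.7 and 68 against 91.5, 94.8, 120 and 78.9, a log2 difference of -0.51 ± 0.19 (SE), and its groups overlapped as well. At the other end, Gm14429 and Gm14439, both pseudogenes with means of 10.7 and 14.2, had fitted differences of 0.27 ± 0.56 and 0.25 ± 0.34 (SE), smaller than their errors. Gm14440 also had a positive fitted difference, and its values are given with Gm14288 below.

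The lower values were not limited to a level or a stretch of the cluster. Members with a mean under 100, from 100 to 500 and of 500 or more were lower in 8 of 10, 18 of 21 and 13 of 14 cases, with median log2 differences of -0.11, -0.15 and -0.11. All genes in the same bins had medians of 0.04, -0.01 and -0.02. Members that start below 176.5 Mb were lower in 16 of 21 cases and those above in 23 of 24, with medians of -0.11 and -0.15. Coding members were lower in 34 of 37 cases and pseudogenes in 5 of 8, with medians of -0.15 and -0.02. The 22 members with over 90% of their words shared had a median of -0.14 and the other 23 a median of -0.12. The splits were not tested against each other.

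Taken per mouse, the median of the 45 members relative to their Control means was -0.212, -0.0991, -0.16 and -0.154 in the 4 Anesthesia mice. It was 0.0646, 0.0131, 0.0143 and -0.0486 in the 4 Control mice. The groups did not overlap, and the closest mice were Anesthesia mouse 2 and Control mouse 4. The same median over 336 Zfp genes elsewhere in the genome lay between -0.0405 and 0.0173 in all 8 mice. That set is larger than the 45 members and has a median GC content of 47.4%, against 39.5% in the members. No median per mouse was taken for the zinc finger clusters on chromosomes 4 and 13, described below.

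The sum of all 46 members is not changed by the way reads were divided among them, although it is by reads given to members that were not listed or to genes outside the window. It was 18244, 18886, 17849 and 17882 normalized counts in the Anesthesia mice and 20223, 19849, 19674 and 18913 in the Control mice. The means were 18215 ± 482 and 19665 ± 551, a log2 difference of -0.11 with a residual SD of 0.0393, and the groups did not overlap, with Anesthesia mouse 2 and Control mouse 4 the closest. Without Gm14435 the sums were 18144 ± 477 and 19534 ± 558, with a log2 difference of -0.11, and the groups then overlapped in Anesthesia mouse 2 and Control mouse 4. Under upper quartile scaling the groups overlapped for the sum of all members too.

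The choroid plexus markers had fitted differences below 0 (median -1.95) with overlapping groups, and their level split each group unevenly. In the 1 Anesthesia and 3 Control libraries in which these markers were above the Control mean, the median log2 difference of the members was -0.16 and that of Gm14435 was -0.76. In the 3 Anesthesia and 1 Control libraries in which they were below it, the values were -0.18 and -0.92. The log2 differences of the summed members were -0.09 and -0.15. Each set has an arm of 1 library and was given no test, and the part of choroid plexus tissue in these values was not tested. With the median of the markers as a covariate the median of the members was -0.17, with 36 of 45 lower, and Gm14435 was at -0.82.

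GC content, which sets these genes apart from most others, was also followed. Transcripts of the members had a median GC content of 39.5%, against 49.4% over all tested genes. The 1716 tested genes between 36.6% and 41.3% GC, the range of most members, had a median log2 difference of -0.02, with 53.5% lower and 3.21% lower without overlap. With every library corrected for transcript length and GC content, the members had a median of -0.12, with 38 of 45 lower and 7 lower without overlap, where 52.9% of all tested genes were lower and 2.12% lower without overlap under the same correction.

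Gm14288 and Gm14440 are near-copies whose values moved in opposite directions between mice. Gm14440, which has 100% of its words in Gm14288, was listed at 0 in Anesthesia mice 1 and 2, at 258 in mouse 3 and at 424 in mouse 4. In the Control group it was listed at 0 in mice 1, 3 and 4 and at 247 in mouse 2. Gm14288 had 891, 987, 730 and 529 normalized counts in the Anesthesia mice and 1166, 935, 1107 and 1018 in the Control mice. Within each group, the mice with a value for Gm14440 were the ones with the lowest Gm14288. The 8 mice fall into a set of 5 at 0 and a set of 3 with a value, so no correlation is given, also not with Gm14435, for which Gm14440 had the smallest r of the members.

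The sum of the pair was 891, 987, 988 and 954 in the Anesthesia mice and 1166, 1182, 1107 and 1018 in the Control mice. The groups did not overlap for the sum, although they did for Gm14288 alone, and the means were 955 ± 45.5 and 1118 ± 74.4. The residual SD of log2 of the sum was 0.0849, where that of Gm14288 alone was 0.296. The log2 difference of the sum was -0.23, and that of Gm14288 alone was -0.46 ± 0.17 (SE). Without Anesthesia mouse 4 the values were -0.23 for the sum and -0.29 for Gm14288, so most of the gap between them rested on that mouse.

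Gm14435 shares sequence with this pair. Its mean was lower in the Anesthesia group by 60.5 normalized counts, and the sum of Gm14288 and Gm14440 was lower by 163. The 5 members that hold the largest part of its words, namely Gm14288, Gm14440, Gm14327, Zfp973 and Zfp968, summed to 1460, 1496, 1624 and 1460 in the Anesthesia mice and 1771, 1744, 1715 and 1579 in the Control mice. These groups overlapped in 1 Anesthesia and 1 Control mouse. With Gm14435 added, the sum was 1581 ± 72.6 and 1833 ± 77.8, a log2 difference of -0.21, without overlap. Gm14288, Gm14440 and Gm14435 alone summed to 1025 ± 42 and 1249 ± 64.1, a log2 difference of -0.28, also without overlap. Both of these sums hold Gm14435, whose difference chose the cluster. Whether reads were exchanged between Gm14435 and these 5 genes was not tested. Gm14327, another short KRAB gene, had 71.9, 91.1, 80.3 and 96.7 against 114, 94, 115 and 111, a log2 difference of -0.36 ± 0.14 (SE), and its groups overlapped by 1 Anesthesia mouse. Zfp973 and Zfp968 had log2 differences of -0.04 ± 0.11 and -0.01 ± 0.13 (SE).

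The second pair, Gm4724 and Gm14308, has the same coding sequence and the same promoter. Gm2026 shares both with them, and Gm4631 shares the coding sequence. Gm4724 had 561, 169, 238 and 502 normalized counts in the Anesthesia mice and 261, 552, 513 and 299 in the Control mice. Gm14308 had 119, 390, 290 and 47.2 against 304, 187, 59.5 and 289. Where one was high the other was low, in both groups. The residual SDs were 0.705 and 1.23 on the log2 scale, 4.71 and 6.4 times the trend at their levels, and that of their sum was 0.173. The sum was 579 ± 68.6 after anesthesia and 616 ± 82.2 in the Control group, with overlapping groups. Other pairs with this coding sequence were less opposed or not opposed. With the group means removed, Gm2026 had r = 0.81 with Gm4631, 0.38 with Gm14308 and -0.29 with Gm4724. Gm4631 had r = 0.15 with Gm14308 and -0.29 with Gm4724. The sum of these 4 genes had a log2 difference of -0.10 and a residual SD of 0.0645, with overlapping groups.

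**Figure D3:**
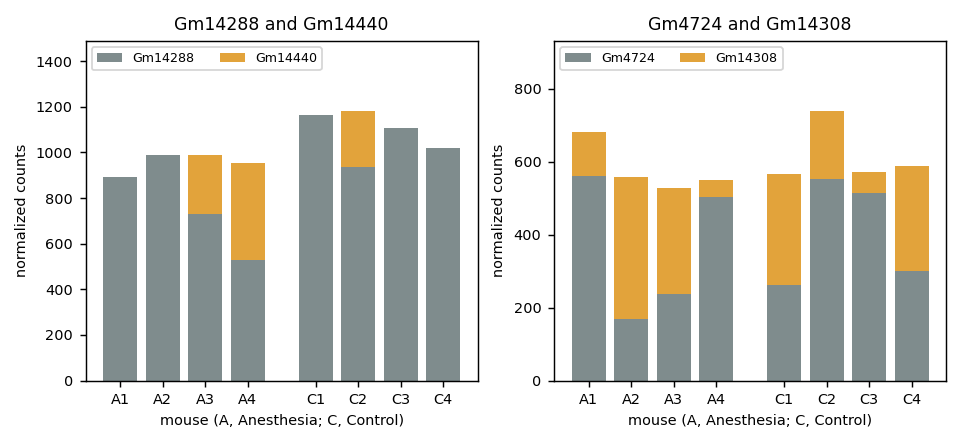
Normalized counts of Gm14288 with Gm14440 (left) and of Gm4724 with Gm14308 (right) stacked for each mouse, A for Anesthesia and C for Control. The split between the genes of a pair changes from mouse to mouse more than the height of the stack, which is 891 to 1182 on the left and 528 to 738 on the right.

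With the group means removed, Gm4724 and Gm14308 had r = -0.83 and rho = -0.86 over the 8 mice (exact permutation within groups, two-sided p = 0.0382 and 0.066), and r = -0.84 without the 2 mice farthest from the median of Gm4724. Zfp965 and Zfp973, which share a coding sequence of 6 fingers, had r = -0.78 and rho = -0.79 (exact permutation, p = 0.0486 and 0.0694), and r = -0.87 without the 2 farthest mice. Gm14443 had the largest r with Gm14435, at 0.65 with rho = 0.43 (exact permutation, p = 0.135 and 0.365), and r fell to -0.32 without the 2 farthest mice, so that this relation rests on them. Gm14288, which holds 78.3% of the words of Gm14435, had r = 0.48 and rho = 0.57 with it (exact permutation, p = 0.264 and 0.144). Without the 2 farthest mice the r of Gm14435 with Gm14288 was 0.60. Next to Gm14440, Gm14295 had the smallest r with Gm14435, at -0.80 with rho = -0.91 (exact permutation, p = 0.0399 and 0.0156), and r = -0.61 without the 2 farthest mice, while it holds 7.37% of the words of Gm14435. In all, 990 pairs of members were computed, and 39 had an unadjusted p under 0.05 (3.94%). After the Benjamini-Hochberg adjustment 0 passed, and the adjusted p of each pair named here was 0.944, the smallest of all. Gm4724 with Gm14308 and Zfp965 with Zfp973 were not named by the rule given below for named genes. Gm14443 and Gm14295 were picked for their r. The unadjusted permutation results do not allow for these choices and are descriptions. The smallest p that the 576 permutations allow is 0.00174.

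Because of its zeros, Gm14440 was left out of this summary of pairs, although the 990 pairs above include it. The median r over the remaining 946 pairs was 0.06, with 44.8% negative, 21 below -0.7 and 43 above 0.7. The 67 pairs in which 1 gene had over 50% of its words in the other had a median r of -0.10 with 52.2% negative, and 3 of them (4.48%) were below -0.7. The 8 pairs in which both genes had over 70% of their words in the other had a median r of 0.12 with 37.5% negative, and 2 of them were below -0.7. The share below -0.7 was 2.22% over the 946 pairs, 4.65% over the 86 pairs with no shared word and 3.99% over 56280 pairs of Zfp genes elsewhere, whose median r was 0.02 with 48.1% negative. All pairs come from the same 8 libraries and are not independent, and these shares are descriptions. Close pairs were not always opposed, as 2210418O10Rik, with 100% of its words in Gm14296, had an r of 0.21 with it and a residual SD of 0.0655.

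The residual SD of log2(value + 1) was over 2 times the trend in 4 of the 45 members (8.89%), namely Gm14440, Gm14308, Gm4724 and Gm14288, and in 8.91% of all tested genes. Each of the 4 had at least 98.6% of its words in other genes, and each has the 80-base promoter stretch shown above. That stretch is common, as 17 tested members have it and 10 tested members have a promoter without it. A relation of the spread to the promoter was not tested. The median ratio to the trend was 0.914 in the members and 0.995 in all tested genes. Other members without a word of their own, such as Zfp967 with a ratio of 1.08, Gm2004 with 1.27 and 2210418O10Rik with 0.552, varied about as genes of their level do or less.

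**Figure D4:**
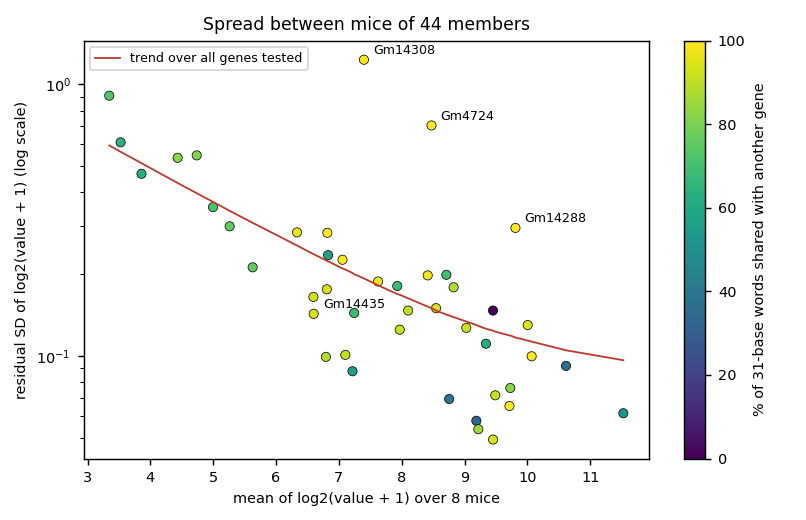
Residual SD of log2(value + 1) between mice against the mean level of 44 members, coloured by the percent of their 31-base words found in another gene; the line is the trend over all tested genes. Gm14308, Gm4724 and Gm14288 lie above the line by 6.4, 4.71 and 2.53 times, and Gm14435 lies below it; Gm14440 is not drawn.

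Zinc finger clusters elsewhere were compared by the same symbol rule. The 10 tested members of the chromosome 4 cluster had a median log2 difference of -0.12, with 8 lower and 0 without overlap. The 37 tested members of the chromosome 13 cluster had a median of -0.06, with 24 lower. In 3 of them (8.11%) the groups did not overlap in the lower direction, as in 2.23% of all tested genes. The 336 other Zfp genes had a median of -0.01, with 53.0% lower, 3.27% without overlap in the lower direction and 3.57% in the higher direction. Median GC contents were 40.1%, 41.6% and 47.4% in these 3 sets. The clusters were not tested against each other, and the lower values are not called particular to chromosome 2.

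**Figure D5:**
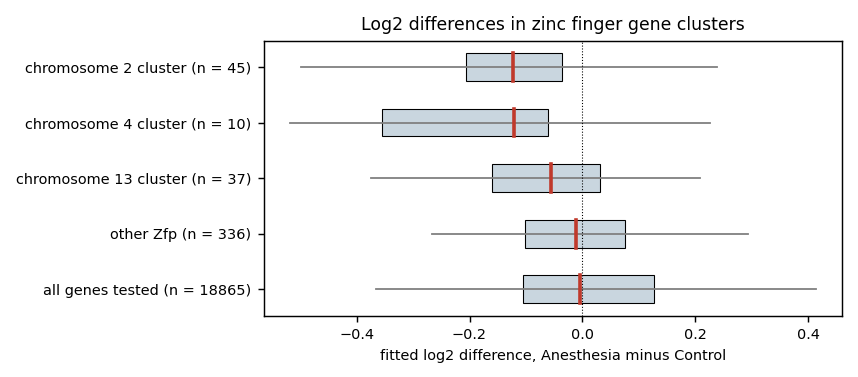
Fitted log2 differences (Anesthesia minus Control) in the chromosome 2 cluster, the chromosome 4 and 13 clusters, the other Zfp genes and all tested genes; red bars are medians, boxes the middle 50% and lines the 5th to 95th percentiles. The median is -0.12 in the chromosome 2 and chromosome 4 clusters, -0.06 in the chromosome 13 cluster and near 0 in the other sets.

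The 6 other listed genes of the window had a median log2 difference of -0.12, close to that of the members, with 4 lower and 0 without overlap, and like all genes of the table none passed the limma test. Edn3, which encodes endothelin 3, had 80.8 ± 16.2 normalized counts after anesthesia and 104 ± 13.4 in the Control group, a log2 difference of -0.38 ± 0.17 (SE) with a limma adjusted p of 0.622. Phactr3, a phosphatase and actin regulator, had 2233 ± 115 and 2110 ± 201 (adjusted p = 0.768 in limma). Sycp2, Ppp1r3d, Fam217b and Cdh26 had log2 differences of -0.12, -0.13, 0.03 and -0.33, with limma adjusted p between 0.785 and 0.943. At the edges of the window, Zfp831 just inside had a log2 difference of 0.20 and Zfp931 of -0.19. The nearest genes outside that meet the symbol rule were Gm14455, at 5.22 ± 1.72 and 5.68 ± 1.9, and 4921531C22Rik, with a log2 difference of 0.27.

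A list of 26 genes of KRAB repression and related chromatin control was measured, including the zinc finger gene Zfp57, and all of them were tested. In limma 0 passed the adjusted threshold, 16 had a difference above 0 and 10 below, and the median was 0.02. Trim28, the corepressor bound by the KRAB domain, had 2185 ± 330 normalized counts after anesthesia and 2070 ± 147 in the Control group (limma adjusted p = 0.856). Setdb1, the methyltransferase it recruits, had 1190 ± 45.9 and 1122 ± 107 (limma adjusted p = 0.762). An unadjusted p under 0.05 was found for 5 of the 26, where 8.02% of all tested genes had one. Among them Pphln1, a subunit of the HUSH complex, had 406 ± 28.2 against 335 ± 18.7 (adjusted p = 0.619 in limma) and was the 1 gene of the list whose groups did not overlap, in the higher direction (2.81% of all tested genes). Ehmt1 and Ehmt2, the paired H3K9 methyltransferases, and Chd3, a chromatin remodeler, had log2 differences of 0.24, 0.14 and 0.15, and Smarcad1, another remodeler, of -0.15, all with limma adjusted p between 0.62 and 0.622.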

How the data were processed

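Hippocampal RNA of 4 Anesthesia and 4 Control mice was sequenced, and the authors estimated transcript abundance with Salmon (version 1.1.0) against GRCm38 using the GC bias option, imported gene-level values with tximport and divided them by DESeq2 (version 1.30.1) size factors. The deposited values are thus a normalized signal of estimated counts, here called normalized counts. The annotation release is not given in the sources used here, and the sources name different TruSeq kits, of which 1 is stranded. Values were not whole reads (45.9% to 68.3% of low values were within 0.1 of whole reads), and the count model set down first was replaced by its stated fallback. That was limma (version 3.58.1, R 4.3.3) on log2(value + 1), with a trend of the variance on the mean, for 18865 genes whose mean was 10 or more, with Benjamini-Hochberg adjustment at 0.05 and no covariate. The limma fit was checked on simulated data with known answers, drawn as independent values without shared reads. P-values measure only the spread between these samples.

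The members, the gene lists and the tests were chosen with earlier results of these data known. Symbols, transcripts and coding sequences came from GENCODE M21, which holds 20784 of the 20802 identifiers, and promoters from RefSeq. C2H2 fingers and the KRAB A box were counted as amino acid motifs in the longest annotated coding sequence. Named genes were Gm14435, the 5 members highest per kilobase, the 5 that hold most of its 31-base words, the 3 largest differences each way, the largest and smallest r with Gm14435, tested neighbours and KRAB repression list genes with an unadjusted p under 0.05. Alternatives were limma voom, upper quartile and total scaling, a pseudocount of 0.1, no filter, at least 10 in every library, a replicate block, a loess correction for GC content and length with and without that block, a choroid plexus covariate, 75-base words and each mouse left out. The split by choroid plexus level was added after the data were seen. Totals of the deposited columns, from 18702634 to 19231119, do not show depth after normalization. The SD of log2 ratios between libraries was 0.45 to 0.672, so none was a copy of another. Lists of thalamus, oligodendrocyte and blood markers were measured as well. Of these, 2 thalamus genes, Tcf7l2 and Calb2, had an unadjusted p under 0.05 in limma (log2 differences of -0.57 and -0.50, adjusted p of 0.62 and 0.622), and 0 blood or oligodendrocyte genes did.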

Additional observations from a re-analysis of the deposited data

Results flagged for a closer look

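Of 58 groups of 4 values examined, 4 held a mouse whose gap to the nearest other mouse took most of the range of its group, where chance gives about 1 in 20. Gm14440 had 246.8 normalized counts in Control mouse 2 and was listed at 0 in the other 3 Control mice. The sum of Gm4724 and Gm14308 was 738.4 in Control mouse 2, where the other Control mice lay between 564.7 and 588.5. Gm14325 had 495.5 in Anesthesia mouse 3, with 404.3 to 419.1 in the others, and the sum of Gm2004 and Gm14419 was 261.6 in Control mouse 3, with 198.2 to 209 in the others. The causes were not tested.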

How the results depend on the processing

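The median log2 difference of the members and the log2 difference of Gm14435 stayed below 0 under every alternative run, and 0 genes of the table passed the adjusted threshold except where a mouse was left out. With the choroid plexus covariate the median of the members moved from -0.123 to -0.17, and within the libraries with choroid plexus markers below the Control mean it was -0.183 and the log2 difference of the summed level -0.152. Upper quartile scaling left 6 members without overlap (13.3%, beside 1.84% of all genes). The GC content and length correction moved the median r of member pairs, here over 990 pairs with Gm14440 included, from 0.051 to -0.0104. The median r values given below for each mouse left out include Gm14440 as well. Words of 75 bases lowered the median shared part from 89.5% to 71.7%. The causes of these shifts were not tested. Leaving out each mouse gave 0 to 2 genes past the adjusted threshold (2 without Control mouse 1), 7 to 11 members without overlap in the lower direction (11, or 24.4%, without Control mouse 2, beside 3.78% of all genes then, and 3.21% to 5.64% over the 8 cases) and at most 1 in the higher direction, a member median of -0.14 to -0.0903, a Gm14435 difference of -0.953 to -0.822, a summed difference of -0.129 to -0.0968 and a median r of 0.0246 to 0.0681. In the fit with a replicate block, 0 genes passed, the member median stayed at -0.123 and Gm14435 at -0.881. Samples with the same number did not deviate together (correlations -0.242, -0.109, -0.182 and 0.0194), so the block is no pairing. Genes with a mean near 10 rest on few reads, and values of near-copies depend on how reads were divided.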
